A study of Mus musculus with 15 samples.

Results

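The genes described here are 37 genes of glucose use: 2 glucose carriers, 19 genes of glycolysis and its control, 4 genes of lactate formation and transport, 5 genes of the pyruvate dehydrogenase step and 7 genes of glycogen turnover. They were taken by their symbols from a list, among 24982 symbols in all. The list was drawn up by function, with earlier results of these data known, and no threshold on a measured value was used. They were counted by RNA-seq of polyadenylated RNA as mouse embryonic stem cells (ESCs) turned into epiblast-like cells (EpiLCs), a model of the epiblast at implantation. The labels give the line E14TG2 for all libraries. There were 15 libraries, 3 in each of 5 groups. The first was ESCs at day 0 with the genotype label Control, grown on inactivated mouse embryonic fibroblasts (feeders) with LIF, the MEK inhibitor PD0325901, the GSK3 inhibitor CHIR99021 and knockout serum replacement. The others had the genotype Control or Atg7 KO and were taken on day 2 or day 4, all on fibronectin in N2B27 medium with activin A, bFGF and the same serum replacement. Atg7 encodes the E1-like enzyme that autophagosome formation needs, and the study asked what its loss does during this transition. The sources used here do not say how the KO was made, which exons it removes or whether it is 1 clone, and Atg7 KO cells of day 0 were not analysed here.

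Glycolysis splits glucose into pyruvate: carriers bring glucose in, hexokinase traps it, the preparatory enzymes spend ATP on it and the payoff enzymes recover more. Pyruvate is then either reduced to lactate by lactate dehydrogenase and exported, or enters mitochondria through pyruvate dehydrogenase, which the PDK kinases switch off. Glycogen phosphorylases and glycogen synthase release and store glucose units. Naive ESCs are known to use both glycolysis and respiration, while the primed epiblast state is known for its reliance on glycolysis, and many of these genes are known targets of the hypoxia-inducible factors.

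Levels are CPM, counts brought to a common library size with TMM factors, and are given for replicates 1, 2 and 3 in that order. Log2 fold changes, with their standard errors, come from an edgeR quasi-likelihood model of all 15 libraries. A gene is said to rise or fall only where the Benjamini-Hochberg adjusted p over all 15696 tested genes was under 0.05. Each comparison was of 3 with 3 libraries. Nothing in the labels tells whether replicates were separate cultures, and p-values then reflect only how far these libraries spread, which may be technical. Libraries held between 14059237 and 23371546 counts. Atg7 was lower in every KO library, with 6.84 to 7.53 CPM against 12.1 to 14.6 CPM in control at day 2, and 10.4 to 12.7 CPM against 19.1 to 19.9 CPM at day 4. It fell by 0.92 ± 0.11 (edgeR adjusted p = 8.34e-06) and by 0.71 ± 0.11 (8.39e-05), so the transcript was lowered and not removed. Hprt, a purine salvage gene, was between 183 and 203 CPM in ESCs and between 1.59 and 2.94 CPM in all the other libraries. A difference of cell line and the time of the transition thus cannot be told apart in any comparison with the ESCs. The labels give the line E14TG2 for the ESCs and the other groups alike, and whether that holds for all of them was not tested.

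Markers of other cells and states moved between the groups, and none of the listed markers was at 0 counts in any group. The summed level of 12 fibroblast genes, collagens among them, was between 362.8 and 2142 CPM in ESCs. At day 2 it was between 395.2 and 445.8 CPM in control and 677.5 and 1064 CPM in KO. At day 4 it was between 188.4 and 206.2 CPM in control and 243.8 and 299.8 CPM in KO. Of these 12, 6 rose and 0 fell in KO at day 2, and 2 rose and 0 fell in KO at day 4. The summed level of 12 naive pluripotency genes was between 4794 and 5029 CPM in ESCs, 1985 and 2059 in control and 2688 and 2888 in KO at day 2, and 1612 and 1666 in control and 2350 and 2689 in KO at day 4. In KO, 6 of these rose and 2 fell at day 2, and 10 rose and 1 fell at day 4. The 11 formative and primed genes summed to between 600.0 and 634.1 CPM in control and 381.4 and 404.0 CPM in KO at day 2, where 1 rose and 5 fell, and to between 944.5 and 979.0 CPM in control and 1119 and 1186 CPM in KO at day 4, where 4 rose and 2 fell. The 10 trophoblast genes summed to between 211.6 and 221.0 CPM in control and 149.9 and 156.7 CPM in KO at day 2, where 2 of 8 tested rose and 6 fell, and to between 525.1 and 682.7 CPM in control and 322.7 and 408.1 CPM in KO at day 4, where 0 rose and 4 fell by edgeR's test. The 12 endoderm genes summed to between 165.1 and 224.2 CPM in ESCs, to between 677.5 and 735.2 CPM in control and 665.0 and 742.4 CPM in KO at day 2, where 5 rose and 3 fell in KO, and to between 945 and 1337 CPM in control at day 4, where all 12 had risen, and to between 1330 and 1576 CPM in KO, where 2 rose and 0 fell. The part these markers have in the results below was not tested, apart from the fits with a collagen score. That score, the mean log2 CPM of Col1a1, Col1a2 and Col3a1, enters beside the group means, so its slope rests on the spread within groups. The score ran from 5.86 to 8.93 in ESCs and from 6.51 to 7.49 in KO at day 2. In control it ran from 2.79 to 3.04 at day 4, so values there extend a slope drawn mostly from other groups. In bulk RNA, fewer cells of a type and less RNA per cell cannot be told apart.

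Of the 37 genes, 36 had enough counts to be tested. The exception was Eno1, the ubiquitous enolase, which had between 0 and 3 counts in each library. Its near-identical copy Eno1b had between 932 and 5074 counts, so the level of Eno1 itself could not be read here. The sum of the pair was higher at day 2 than in ESCs, by 1.504 on the log2 scale (edgeR adjusted p = 3.69e-08), and lower in KO than in control by -0.42 at day 2 (0.0133) and by -0.92 at day 4 (4.18e-05). This sum was formed after the counts were seen. Gapdh, Pgk1, Ldha, Tpi1, Aldoa and Pgam1 have processed pseudogenes, and the sources used here do not say how reads shared with them were counted.

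Per length of exon (RPKM), Gapdh, the dehydrogenase that starts the payoff phase, was the most abundant of the members with such a value in every group, with a level of 708 ± 16.3 RPKM in ESCs, 869 ± 36.8 in control at day 2 and 772.5 ± 83.7 in control at day 4 (SD, n = 3). Pkm, pyruvate kinase, came next with 379 ± 44.4, 368 ± 4.60 and 486 ± 73.1 RPKM in the same groups. In ESCs the following levels were those of Ldhb (236 ± 99.0 RPKM), Slc2a3 (214 ± 8.91), Pgam1 (175 ± 3.61), Pgk1 (155.5 ± 13.4) and Ldha (126 ± 40.2). In control at day 4 Slc2a1 (335 ± 120) and Slc2a3 (331 ± 82.6) came after Pkm, followed by Pgk1 (264 ± 69.4), Ldha (236 ± 69.2) and Tpi1 (134 ± 41.4). Neighbours from Slc2a1 to Ldha in that order did not differ beyond their spread, nor did Ldhb and Slc2a3 in ESCs. The lowest levels in control at day 4 were those of the regulator Pfkfb4 (1.23 ± 0.0810 RPKM), the kinase Pdk2 (1.30 ± 0.221), the neuronal enolase Eno2 (1.59 ± 0.126) and the liver glycogen phosphorylase Pygl (1.99 ± 0.390). Aldoa has no RPKM value here, because its symbol matches no single gene in the annotation used. Pgm1 and Pgm2 were left without one because their symbols were exchanged between releases, and Eno1 because of its near-identical copy. All 37 together took 1.118% ± 0.031 of a library's counts in ESCs, 1.268% ± 0.009 in control at day 2 and 1.616% ± 0.299 in control at day 4.

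**Figure D1:**
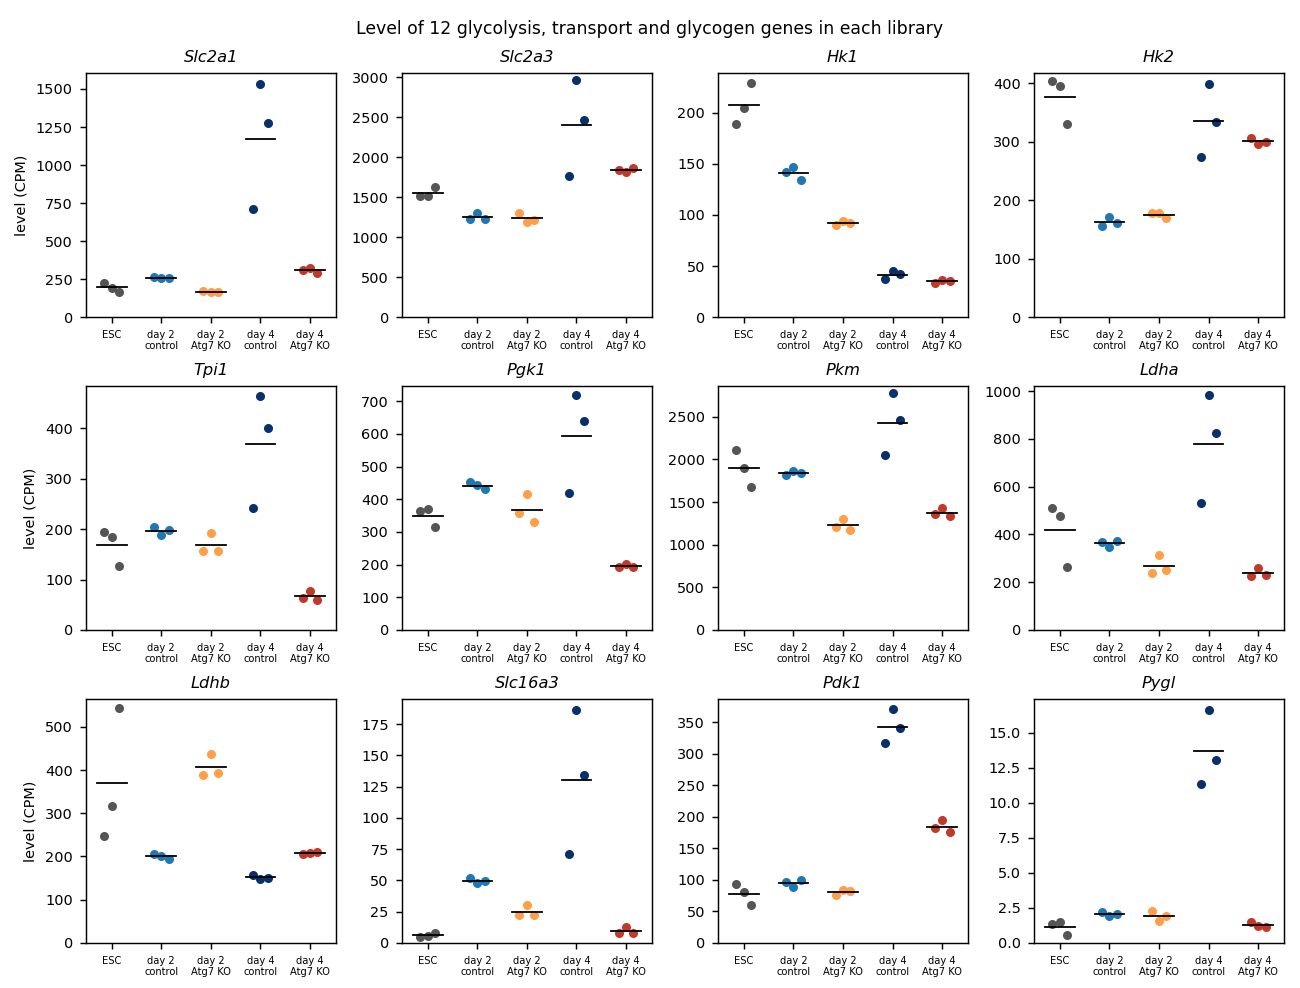
Level (CPM, linear axis from 0) of 12 of the genes in each of the 15 libraries, as points, with the group mean as a line. Slc2a1, Tpi1, Pgk1, Ldha, Slc16a3, Pdk1 and Pygl have their highest mean in control at day 4, where replicate 1 lies lowest, and are lower in the Atg7 KO libraries of that day, whereas Hk1 is lowest at day 4 and Ldhb is lower in control than in KO at both days.

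The first step of the transition, from ESCs to control cells at day 2, mixed increases and decreases. Of the 36 genes, 17 rose and 10 fell, where 35.6% and 34.9% of all tested genes rose and fell. The median log2 fold change was 0.29 over these genes and 0.02 over all genes. This comparison and those of control day 4 with day 2 and with ESCs share their groups, so their values are set side by side and not counted against each other. The steps of the pathway did not move as a block: 4 of 9 preparatory enzymes rose and 3 fell, 4 of 6 tested payoff enzymes rose and 1 fell, and the glycogen genes gave 3 and 2.

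Slc16a3, which encodes the lactate exporter MCT4, had the largest increase of the 36 in that step. Its level was 4.77, 5.28 and 7.65 CPM in ESCs and 51.5, 48.1 and 49.6 CPM in control at day 2, and every one of these control libraries lay far above the ESC libraries. It rose by 3.07 ± 0.31 (edgeR adjusted p = 1.86e-07). Aldoc, the brain-type aldolase, rose by 2.06 ± 0.31, Pfkfb3, which makes the phosphofructokinase activator fructose 2,6-bisphosphate, by 1.30 ± 0.29, and Eno2 by 1.29 ± 0.13. Pfkl, the liver-type phosphofructokinase, rose by 0.99 ± 0.12, and its levels of 105, 100 and 93.3 CPM in ESCs lay below the 198, 206 and 190 CPM of control at day 2.

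Gys1, the glycogen synthase of muscle and most tissues, had the largest decrease in that step. It went from 153, 134 and 126 CPM in ESCs to 26.9, 23.7 and 25.4 CPM at day 2, with no overlap. It fell by 2.45 ± 0.14 (edgeR adjusted p = 3.8e-10). The brain glycogen phosphorylase Pygb fell by 1.03 ± 0.07. Hk2, the inducible hexokinase, went from 404, 394 and 329 CPM to 155, 171 and 160 CPM and fell by 1.21 ± 0.10. The subunits of pyruvate dehydrogenase fell as well, Pdhb by 0.63 ± 0.06 and Pdha1 by 0.39 ± 0.10. The 3 inhibiting kinases among the members rose, Pdk2 by 0.95 ± 0.17, Pdk3 by 0.87 ± 0.08 and Pdk1 by 0.29 ± 0.11. The groups overlapped for Pdk1, and without ESC replicate 3 it did not pass (0.14). With libraries scaled chromosome by chromosome, Pdk1 did not pass either (0.24, edgeR adjusted p = 0.0595). Pdk3 and Pdha1 lie on the X chromosome, where the median of 608 tested genes was 0.38 in this step. Pdk4, a further kinase of the enzyme outside the members, rose by 1.22 ± 0.08 (edgeR adjusted p = 1.57e-09). With the collagen score as a covariate, Pdha1 was at -0.02 (edgeR adjusted p = 0.887).

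The lactate dehydrogenases were uneven within the ESC group. Ldhb, the subunit typical of tissues that oxidise lactate, was 247, 318 and 545 CPM in ESCs, and Ldha, the subunit typical of lactate production, was 511, 477 and 265 CPM. In the same 3 libraries the fibroblast collagen Col1a1 was 507, 281 and 88.2 CPM, so the library with the least collagen had the most Ldhb and the least Ldha. The part of feeder RNA in this was not tested. By day 2 Ldhb had fallen, at -0.88 ± 0.18 (edgeR adjusted p = 0.000333), and without ESC replicate 3 the value was -0.49. Ldha was 369, 346 and 372 CPM at day 2, inside the range of the ESCs, and its value of -0.20 ± 0.21 did not pass (0.39), but without ESC replicate 3 it fell by 0.44.

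From day 2 to day 4 in control cells, 15 of the 36 genes rose and 11 fell, where 33.9% and 34.6% of all tested genes did. At least 2-fold increases were seen for 7 of the 36 members and for 14.2% of all tested genes. Both glucose carriers rose. Slc2a1, which encodes the ubiquitous carrier GLUT1, went from 263, 255 and 257 CPM at day 2 to 712, 1535 and 1275 CPM at day 4. The day-4 libraries all lay above those of day 2, with replicate 1 well below the other replicates, and the rise was 2.18 ± 0.19 (edgeR adjusted p = 2.84e-08). Slc2a3, which encodes GLUT3, a carrier with high affinity for glucose, went from 1222, 1297 and 1230 CPM to 1769, 2961 and 2469 CPM and rose by 0.94 ± 0.12.

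Among the other genes that rose from day 2 to day 4 were those of lactate, of the pyruvate switch and of glycogen. Ldha went from the day-2 levels above to 532, 983 and 825 CPM and rose by 1.11 ± 0.21 (edgeR adjusted p = 0.000184). Slc16a3 reached 71.1, 186 and 134 CPM, a rise of 1.39 ± 0.25 (1.06 with the collagen score, adjusted p = 0.0803). Pdk1 went from 96.6, 88.8 and 99.7 CPM to 316, 371 and 340 CPM, with no overlap, and rose by 1.85 ± 0.11, whereas Pdk2 went the other way and fell by 2.32 ± 0.18. Pygl, which releases glucose units from glycogen, was 2.18, 1.94 and 2.03 CPM at day 2 and 11.4, 16.6 and 13.1 CPM at day 4, a rise of 2.74 ± 0.23 in a gene that was low throughout. The glycogen branching enzyme gene Gbe1 rose by 1.89 ± 0.22, Hk2 by 1.05 ± 0.10, Tpi1, the triose phosphate isomerase gene, by 0.90 ± 0.19 and Pgk1, the first ATP-forming enzyme of the payoff phase, by 0.42 ± 0.14. Pgk1 had also risen by 0.34 ± 0.14 up to day 2, and with libraries scaled chromosome by chromosome neither step passed (0.22 and 0.05). Slc2a3, Hk2 and Tpi1 lie on chromosome 6, where the median of all 774 tested genes was 0.38 from day 2 to day 4.

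Hexokinase 1 went down while hexokinase 2 rose again after day 2. Hk2 at day 4 was at -0.17 ± 0.10 against ESCs and did not pass (edgeR adjusted p = 0.151). With libraries scaled chromosome by chromosome it was lower than in ESCs, at -0.56 (edgeR adjusted p = 0.000114). Hk1 was 189, 205 and 229 CPM in ESCs, 142, 147 and 134 CPM at day 2 and 37.2, 44.7 and 42.0 CPM at day 4, with no overlap between any of the 3 groups. It fell by 1.77 ± 0.08 in the second step and by 2.33 ± 0.08 over the 4 days (edgeR adjusted p = 3.32e-13). Pfkm, the muscle-type phosphofructokinase, fell by 1.13 ± 0.07 from day 2 to day 4, and Pygb by 0.79 ± 0.07. Gapdh fell by 0.17 ± 0.06 and Ugp2, which makes the UDP-glucose used for glycogen, by 0.17 ± 0.07. The latter pair did not pass under RLE scaling, at -0.13 each.

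Over the whole course, from ESCs to control at day 4, 19 genes rose and 11 fell, where 36.2% and 35.6% of all tested genes did, and the median was 0.38 against 0.02 for all genes. The largest increases were those of Slc16a3 (4.46 ± 0.31), Pygl (3.58 ± 0.26), Slc2a1 (2.59 ± 0.19), Gbe1 (2.37 ± 0.24) and Pdk1 (2.14 ± 0.11), and the largest decreases those of Hk1, Gys1 (-1.88 ± 0.14), Pygb (-1.82 ± 0.07), Pdk2 (-1.37 ± 0.19) and Ldhb (-1.28 ± 0.18). Of the tested members, 6 lie on chromosome 6 (Slc2a3, Hk2, Tpi1, Gapdh, Eno2 and Ldhb), with a median of 0.43 over its 774 tested genes here, and 3 on the X chromosome (Pgk1, Pdk3 and Pdha1), where the median of 608 genes was 0.48. With libraries scaled chromosome by chromosome, 16 members rose and 13 fell. In that fit Gapdh, at 0.12 ± 0.06 with TMM scaling, was at -0.27 and Hk2 at -0.56, both past the test. Slc2a3 (0.24), Pgk1 (0.27) and Pfkfb4 (0.34) did not pass in it. Hk2 was also lower, at -0.25, in the 13 libraries left without ESC replicate 3 and day-2 KO replicate 2 (edgeR adjusted p = 0.0171).

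**Figure D2:**
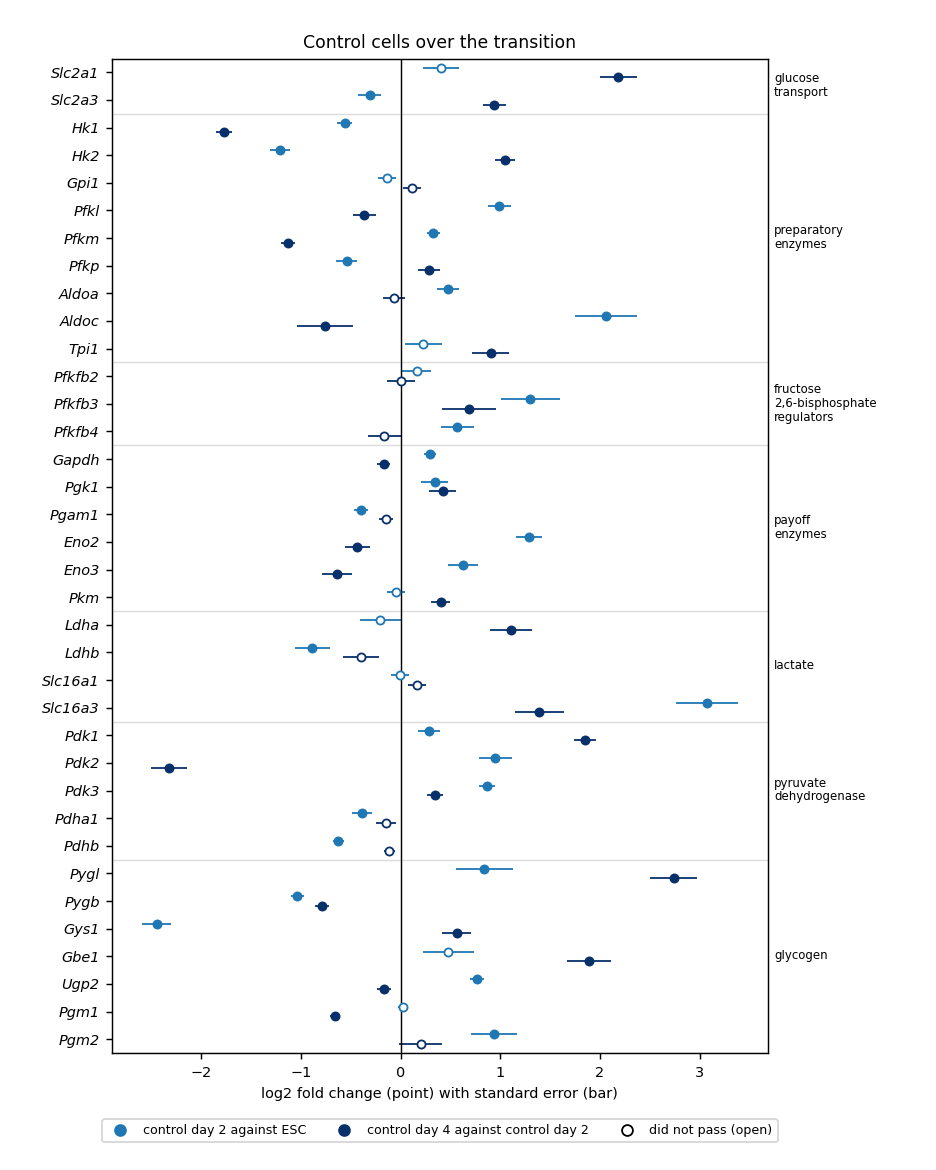
Log2 fold change (point) with its standard error (bar) of the 36 tested genes in control cells, for day 2 against ESCs (lighter) and day 4 against day 2 (darker), with open points for values that did not pass the test. Genes stand in the order of their roles, and Slc2a1, Hk2, Ldha, Pdk1, Pygl and Gbe1 lie to the right of 0 in the second step while Hk1, Pfkm, Pdk2 and Pygb lie to the left.

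Loss of Atg7 was then compared with control at each day. At day 2, 13 of the 36 genes fell and 3 rose in KO, where 21.4% and 20.4% of all tested genes fell and rose. The median was -0.25 over the members and -0.01 over all genes. On chromosome 18, which holds no member with a known position, the median of 397 tested genes was 0.56 in KO at day 2. There it was 0.01 in KO at day 4, -0.59 for the difference of the KO effect and 0.34 from day 2 to day 4 in control. The cause of this shift, and its part in the values of the members, was not tested. The groups did not overlap for 28 of the 36 members and for 61.3% of all tested genes. The decreases ran from -0.99 to -0.31, and 0 of the 13 passed edgeR's test against a 1.5-fold change. All 37 genes together took 1.129% ± 0.032 of the counts in KO and 1.268% ± 0.009 in control. The summed fibroblast markers were higher in KO at this day, as given above.

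The members that fell at day 2 came from most steps. Pkm was 1206, 1306 and 1175 CPM in KO against 1819, 1865 and 1843 CPM in control, with no overlap, and fell by 0.58 ± 0.09 (edgeR adjusted p = 0.000111). Pgam1, phosphoglycerate mutase, was 169, 175 and 170 CPM against 260, 278 and 252 CPM and fell by 0.62 ± 0.07. Hk1 was 90.4, 94.3 and 92.3 CPM in KO, below every control library, and fell by 0.61 ± 0.07 (9.49e-06). Among the phosphofructokinases, which catalyse the committed step, Pfkl fell by 0.79 ± 0.11 and Pfkp, the platelet type, by 0.55 ± 0.11, and Pfkm, at -0.11 ± 0.07, did not pass.

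Of the enzymes that set the level of fructose 2,6-bisphosphate, Pfkfb2 fell by 0.68 ± 0.14 and Pfkfb4 by 0.58 ± 0.16, and Pfkfb3, at -0.54 ± 0.28, did not pass (edgeR adjusted p = 0.127). Slc2a1 was 175, 166 and 162 CPM in KO, below the lowest control library, and fell by 0.63 ± 0.18 (0.0109). Slc16a3 was 22.1, 30.5 and 22.2 CPM in KO against 51.5, 48.1 and 49.6 CPM in control and fell by 0.99 ± 0.25 (0.00521). With the collagen score as a covariate it was at -0.82 and did not pass (0.0564). Eno2 fell by 0.47 ± 0.12 and Pdk3 by 0.43 ± 0.08. The aldolases Aldoa, at -0.31 ± 0.11, and Aldoc, at -0.73 ± 0.28, passed with all libraries, but Aldoa was lost in each of the 6 refits without 1 compared library and Aldoc in 5 of them.

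Ldhb rose at day 2 and was the 1 member with an at least 2-fold increase there, where 3.62% of all tested genes rose as much. It was 388, 438 and 393 CPM in KO and 206, 201 and 194 CPM in control, with no overlap, and rose by 1.02 ± 0.18 (edgeR adjusted p = 0.000302). Ldha was 240, 312 and 253 CPM in KO against 369, 346 and 372 CPM in control. Its groups did not overlap either, but its value of -0.43 ± 0.21 did not pass (0.104). Ldha passed at -0.87 with the collagen score (edgeR adjusted p = 0.000322) and at -0.56 in the 13 libraries left without ESC replicate 3 and day-2 KO replicate 2 (0.00276). Tpi1, Pgk1, Slc16a1, Pdk1, Pdha1 and Pdhb also passed at day 2 with the collagen score, at values from -0.50 to -0.19, and 19 members in all then fell. Gys1 rose by 0.45 ± 0.15 and Pygb by 0.23 ± 0.07. Without control replicate 2, or without KO replicate 3, neither passed, and Ldhb was then the 1 member that rose. With the collagen score Gys1 was at 0.35 (edgeR adjusted p = 0.0658).

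At day 4 the direction was the same for every member that passed. In KO 24 of the 36 genes fell and 0 rose, where 18.1% of all tested genes fell and 19.5% rose, with edgeR's quasi-likelihood test. DESeq2 gave 0 increases as well, and at an unadjusted p under 0.05 there was 1, that of Ldhb. The median was -0.40 over the members and -0.01 over all genes, and the groups did not overlap for 27 members and for 54.9% of all genes. At least 2-fold lower were 8 of the 36 members, against 5.25% of all tested genes. By role, 2 of 2 glucose carriers fell, 8 of 9 preparatory enzymes, 1 of 3 fructose 2,6-bisphosphate regulators, 5 of 6 tested payoff enzymes, 3 of 4 lactate genes, 2 of 5 genes of the pyruvate dehydrogenase step and 3 of 7 glycogen genes. All 37 genes together took 0.987% ± 0.020 of the counts in KO, with every KO library below every control library, whose values were 1.292%, 1.881% and 1.675%.

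The glucose carrier Slc2a1 was 310, 322 and 291 CPM in KO and 712, 1535 and 1275 CPM in control at day 4. It fell by 1.93 ± 0.18 (edgeR adjusted p = 1.18e-06), to a level still above that of KO at day 2. Slc2a3 was 1839, 1815 and 1865 CPM in KO, which lies inside the control range of 1769 to 2961 CPM, and fell by 0.38 ± 0.12 (0.0158). That call rested on control replicates 2 and 3, and without the former or the latter the value was -0.20 or -0.36 and did not pass. With the collagen score Slc2a3 was at -0.31 (edgeR adjusted p = 0.0668). In the same libraries the summed naive markers were higher in KO than in control, as given above.

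Of the preparatory enzymes, Tpi1 and Aldoc had the largest decreases. Tpi1, which interconverts the triose phosphates so that both enter the payoff phase, was 63.5, 78.0 and 59.7 CPM in KO and 242, 463 and 400 CPM in control. It fell by 2.46 ± 0.20 (edgeR adjusted p = 2.87e-07), below every library of the other groups. Aldoc was 0.729, 1.21 and 1.11 CPM in KO and 4.87, 15.5 and 12.0 CPM in control, with no overlap, and fell by 3.39 ± 0.39. The abundant aldolase Aldoa fell by 0.74 ± 0.11, from 935, 1470 and 1340 CPM to 733, 780 and 737 CPM. Pfkl fell by 0.89 ± 0.12, Pfkm by 0.61 ± 0.07 and the glucose phosphate isomerase Gpi1 by 0.41 ± 0.09. The smaller decreases of Pfkp (-0.35 ± 0.11) and Hk1 (-0.24 ± 0.08) did not pass in 3 and 4 of the 6 refits without 1 compared library, and Hk1 was at -0.13 with the collagen score (edgeR adjusted p = 0.245). Hk2 was the 1 preparatory enzyme that did not pass, with 305, 296 and 300 CPM in KO inside the 273 to 399 CPM of control and a value of -0.16 ± 0.10, but with the collagen score it passed at -0.29 (edgeR adjusted p = 0.039).

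Pfkfb3 was 13.9, 11.2 and 14.4 CPM in KO and 27.8, 90.9 and 73.0 CPM in control at day 4. The groups did not overlap, with control replicate 1 closest to the KO libraries, and Pfkfb3 fell by 2.28 ± 0.30 (edgeR adjusted p = 2.44e-05). Its relatives gave no call, with Pfkfb2 at 0.14 ± 0.14 and Pfkfb4 at -0.35 ± 0.17, although Pfkfb4 passed at -0.62 with the collagen score (edgeR adjusted p = 0.0198).

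Among the payoff enzymes Pgk1 changed most. It was 192, 203 and 194 CPM in KO and 419, 720 and 639 CPM in control, and fell by 1.60 ± 0.14 (edgeR adjusted p = 5.66e-07). Pkm was 1356, 1426 and 1340 CPM against 2051, 2780 and 2463 CPM, with no overlap, and fell by 0.82 ± 0.09. Eno2 fell by 0.94 ± 0.14. Gapdh fell by 0.40 ± 0.06, with 2456, 2484 and 2329 CPM in KO, all below the lowest control library at 2823 CPM. Pgam1, which had fallen by 0.62 ± 0.07 at day 2, fell by only 0.24 ± 0.07 here, a call lost without control replicate 2 or without control replicate 3. Eno3, the muscle enolase, did not pass, at -0.36 ± 0.16 (edgeR adjusted p = 0.0868), but passed in a fit of these groups alone, with the collagen score (-0.71) and without control replicate 1 (-0.47).

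The lactate exporter Slc16a3 had the largest decrease of all members at day 4. It was 7.71, 12.4 and 8.29 CPM in KO and 71.1, 186 and 134 CPM in control, with no overlap, and fell by 3.78 ± 0.29 (edgeR adjusted p = 1.8e-07). The KO level was thus near the 4.77 to 7.65 CPM of ESCs. Slc16a1, which encodes MCT1, a carrier for uptake and export of lactate, fell by 0.32 ± 0.09. Ldha was 228, 258 and 228 CPM in KO against 532, 983 and 825 CPM in control and fell by 1.71 ± 0.21 (1.44e-05). Ldhb lay the other way, with 205, 208 and 210 CPM in KO above 158, 147 and 151 CPM in control, but its value of 0.45 ± 0.18 did not pass (0.0604). It passed when scaled chromosome by chromosome, without a filter, in a fit of these groups alone, without ESC replicate 1 or 3 or control replicate 2, and with the collagen score, where it was 0.92.

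Of the pyruvate dehydrogenase kinases, Pdk1 was 182, 195 and 175 CPM in KO against 316, 371 and 340 CPM in control and fell by 0.90 ± 0.11 (edgeR adjusted p = 9.64e-06), and Pdk3 fell by 0.41 ± 0.08. Pdk2 (0.01 ± 0.20) and the enzyme's own subunits Pdha1 (0.09 ± 0.10) and Pdhb (0.05 ± 0.06) did not pass. Of the glycogen genes, Pygl was 1.52, 1.21 and 1.11 CPM in KO and 11.4, 16.6 and 13.1 CPM in control, and fell by 3.41 ± 0.25 (1.5e-07), near the 0.594 to 1.49 CPM of the ESCs. Pygb fell by 0.40 ± 0.08. Pgm2, a phosphoglucomutase gene, fell by 0.69 ± 0.22, a call lost in 5 of 6 refits without 1 compared library. With the collagen score Pgm2 was at -0.14 (edgeR adjusted p = 0.561). Gys1 (0.16 ± 0.14), Gbe1 (-0.38 ± 0.21), Ugp2 (-0.04 ± 0.07) and Pgm1 (-0.10 ± 0.05) did not pass. The symbols Pgm1 and Pgm2 have been exchanged between annotation releases, so which of these enzymes each row holds is uncertain.

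**Figure D3:**
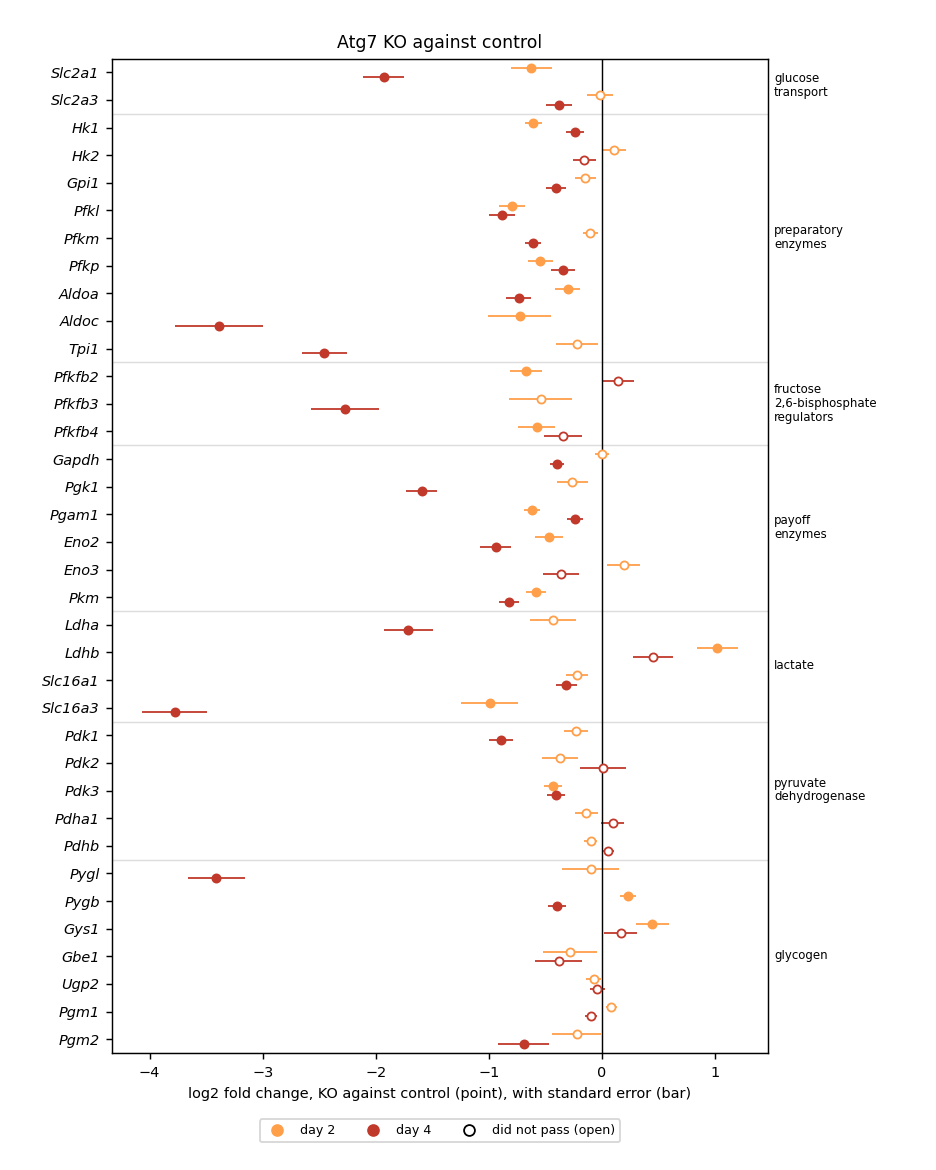
Log2 fold change of Atg7 KO against control (point) with its standard error (bar) for the 36 tested genes at day 2 (orange) and day 4 (red), with open points for values that did not pass the test. At day 4 all 24 filled points lie left of 0, with Slc16a3, Pygl and Aldoc beyond -3, and at day 2 the 13 filled points left of 0 stay above -1 while Ldhb lies at 1.02.

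The KO comparisons at the 2 days share no libraries. Of the 13 members that fell at day 2, 11 also fell at day 4, which is 84.6% of the day-2 list and 45.8% of the day-4 list. Over all tested genes, 878 fell at both days, 26.2% and 30.9% of those lists. These shares have unlike bases, because 24 of the 36 members and 18.1% of all tested genes fell at day 4. The 11 were Slc2a1, Hk1, Pfkl, Pfkp, Aldoa, Aldoc, Pgam1, Eno2, Pkm, Slc16a3 and Pdk3. The same model tested whether the effect of KO differed between the days. It was lower at day 4 for 13 members and higher for 3, where 17.6% and 18.6% of all tested genes were lower and higher. Pygl differed most, at -3.31 ± 0.36 (edgeR adjusted p = 5.81e-06), followed by Slc16a3 at -2.78 ± 0.38, Aldoc at -2.66 ± 0.49 and Tpi1 at -2.23 ± 0.27. Of the 8 members with an at least 2-fold decrease at day 4, all 8 were among the 13. They were picked by the day-4 effect, which is part of this difference. The effect was weaker at day 4 for Pfkfb2 (0.81 ± 0.20), Pgam1 (0.38 ± 0.10) and Hk1 (0.37 ± 0.11). Pkm (-0.24 ± 0.13) and Pfkl (-0.09 ± 0.16), lowered at both days, did not pass this test, but Pkm did with the collagen score, at -0.26 (edgeR adjusted p = 0.046).

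Control replicate 1 of day 4 bears on these sizes. It had the lowest level of the 3 control libraries for Slc2a1, Tpi1, Pfkfb3, Pgk1, Ldha, Slc16a3, Aldoc and Pygl alike, although its total of 15998619 counts lay between those of the others. Without it 26 members fell in KO at day 4. Without control replicate 2 the count was 19 and without replicate 3 it was 20. The 8 members with at least 2-fold decreases passed in each of the 6 refits without 1 library compared. Their values in those refits stayed between -4.07 and -1.43.

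The ratio of a pair of isozymes within a library does not depend on a factor applied to the whole library, although chromosome-wise scaling would move it where the pair lies on different chromosomes, and 6 pairs were followed as log2 ratios of counts. Ldhb over Ldha was -0.84, -0.78 and -0.94 in control and 0.69, 0.49 and 0.64 in KO at day 2, and -1.76, -2.74 and -2.45 in control and -0.16, -0.31 and -0.12 in KO at day 4. At both days every KO library lay above every control library, by 1.46 and 2.12 in the mean. In ESCs the ratio spread from -1.05 to 1.04. Hk2 over Hk1 was 0.85 ± 0.30 in ESCs, 0.21 ± 0.07 in control and 0.92 ± 0.05 in KO at day 2, where the groups did not overlap, and 3.01 ± 0.14 in control and 3.10 ± 0.09 in KO at day 4, where they did. Aldoc over Aldoa was lower in KO at both days, by a mean difference of -0.44 at day 2 and -2.57 at day 4, with no overlap.

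Slc2a3 over Slc2a1 was 3.00 ± 0.26 in ESCs, 2.27 ± 0.07 in control and 2.88 ± 0.04 in KO at day 2, and 1.07 ± 0.21 in control and 2.58 ± 0.09 in KO at day 4 (SD, n = 3). The KO libraries thus lay above control at both days, toward the ESC values. Pfkp over Pfkl differed in the same direction, by 0.25 at day 2 and 0.54 at day 4. Pfkfb3 over Pfkfb2 was 1.52 ± 1.04 in control and -0.73 ± 0.32 in KO at day 4. Over the 30 comparisons of these ratios, exact two-sided permutation tests of 3 against 3 libraries can give no p below 0.10, and the smallest adjusted p was 0.12, so none could pass.

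**Figure D4:**
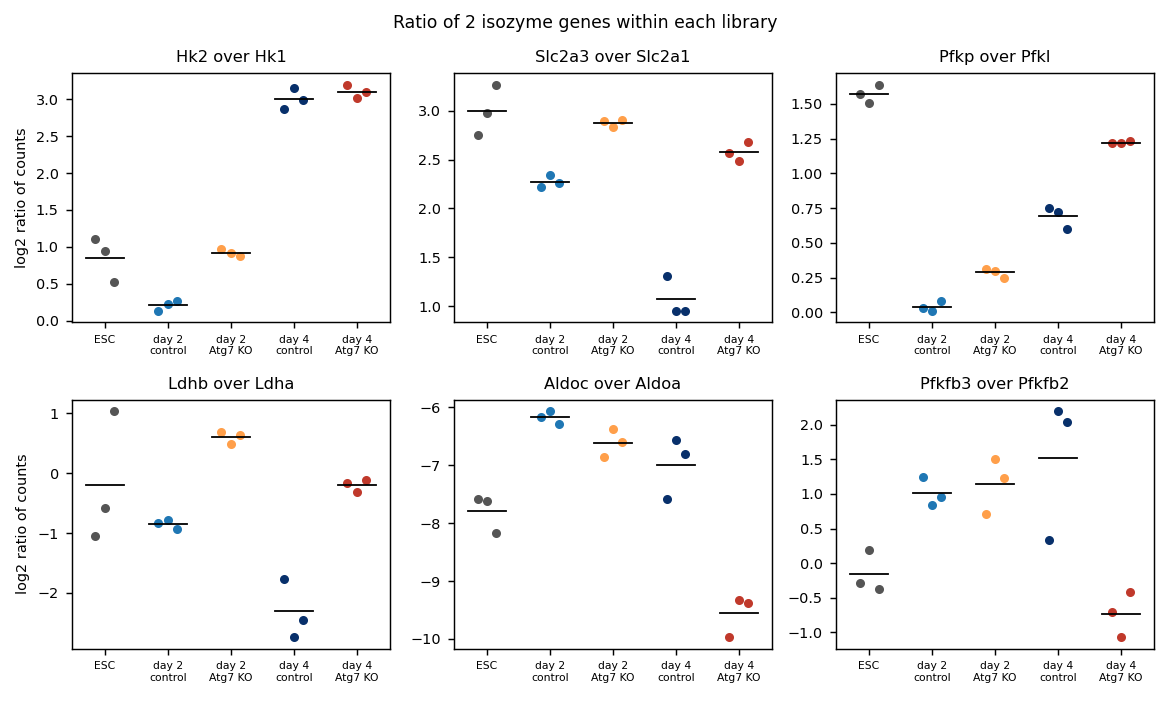
Log2 ratio of the counts of 2 isozyme genes within each library (points) with the group mean (line), for 6 pairs in the 5 groups. Ldhb over Ldha and Slc2a3 over Slc2a1 lie higher in Atg7 KO than in control at both days, whereas Hk2 over Hk1 is near 3 in both groups of day 4.

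Genes next to these in metabolism were counted in the same way, where over all tested genes 20.4% rose and 21.4% fell in KO at day 2 and 19.5% rose and 18.1% fell at day 4. Of 20 tested other sugar carriers and glycolytic isozymes, 5 rose and 6 fell at day 2 and 1 rose and 4 fell at day 4, and apart from the 1 increase these counts lie near those shares. Slc2a4, which encodes the insulin-regulated carrier GLUT4, was 10.4, 12.4 and 10.5 CPM in control and 3.86, 4.04 and 4.499 CPM in KO at day 2 and fell by 1.43 ± 0.15 (edgeR adjusted p = 2.85e-06). Tigar, a phosphatase that lowers fructose 2,6-bisphosphate, rose by 0.87 ± 0.09 at day 2. At day 4 the muscle mutase gene Pgam2 fell by 1.15 ± 0.24. Of 14 genes of lactate carriers, their partners and pyruvate entry, 1 rose and 7 fell at day 2, and 3 rose and 6 fell at day 4. Bsg, which encodes basigin, the chaperone that brings MCT1 and MCT4 to the membrane, was 286, 284 and 275 CPM in KO and 358, 418 and 438 CPM in control at day 4 and fell by 0.52 ± 0.06 (7.28e-06). Pcx, pyruvate carboxylase, fell by 0.39 ± 0.07 at day 2 and rose by 0.96 ± 0.07 at day 4.

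Of 17 tested other glycogen genes, 2 rose and 5 fell at day 2, and 2 rose and 5 fell at day 4. Over all tested genes 20.4% rose and 21.4% fell at day 2 and 19.5% rose and 18.1% fell at day 4, so the small counts of this list and of the 2 lists that follow are given as a description. Gyg, which encodes glycogenin, the primer of glycogen chains, fell by 0.47 ± 0.08 at day 2 and by 0.68 ± 0.08 at day 4. Stbd1, which tethers glycogen to membranes, was 3.01, 3.45 and 3.83 CPM in control and 0.850, 0.749 and 0.652 CPM in KO at day 4 and fell by 2.18 ± 0.27 (edgeR adjusted p = 1.31e-05). Gaa, the lysosomal enzyme that degrades glycogen, rose by 0.74 ± 0.11 at day 4. The pentose phosphate pathway, which branches off glucose 6-phosphate, gave 2 increases and 4 decreases among 11 genes at day 2 and 2 and 1 at day 4. Of 6 tested gluconeogenesis genes 2 rose and 0 fell at day 2, and 3 rose and 1 fell at day 4. Pck2, the mitochondrial enzyme that makes phosphoenolpyruvate from oxaloacetate, was 14.9, 14.6 and 16.8 CPM in control and 93.1, 104 and 78.9 CPM in KO at day 4, with no overlap. It rose by 1.42 ± 0.22 at day 2 and by 2.58 ± 0.23 at day 4 (8.07e-07).

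Of 19 regulators of glycolytic genes, 2 rose and 4 fell in KO at day 2, where 20.4% and 21.4% of all tested genes did, and 7 rose and 5 fell at day 4, where 19.5% and 18.1% did. Egln3, a prolyl hydroxylase that marks the hypoxia-inducible factors for destruction and is itself among their known targets, was 22.97, 66.1 and 53.1 CPM in control and 7.41, 6.98 and 6.79 CPM in KO at day 4. It fell by 2.74 ± 0.27 (edgeR adjusted p = 1.6e-06), and control replicate 1 was again the lowest of its group. Txnip, an arrestin-like inhibitor of glucose uptake, was 1189, 932 and 1113 CPM in control and 427, 482 and 393 CPM in KO and fell by 1.31 ± 0.14, with replicate 1 the highest of the controls. Epas1, which encodes HIF-2 alpha, fell by 0.73 ± 0.07 at day 2 and rose by 0.46 ± 0.07 at day 4.

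The promoters of the members were searched on both strands for ACGTG, a form of the core of the hypoxia response element. They were also searched for CACGTG, the E-box bound by MYC and related factors. The other form of that core, GCGTG, was not searched for. The window was the 250 bases before the RefSeq starts (GRCm38.p6), and an ACGTG match may lie inside a CACGTG match. A promoter was found for 36 of the 37 genes, with no entry for Slc2a3. ACGTG stood in 20 of the 36 (55.6%), in 24.0% of 12143 tested genes and in 18.5% of 27025 genes. CACGTG stood in 6 members (16.7%) and in 9.56% of the tested genes. The part of base composition in these shares was not tested.

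The matches did not follow the calls closely. ACGTG was found in 14 of the 23 promoters of members that fell at day 4, in 6 of the 12 of members that did not pass, and in 6 of the 8 with at least 2-fold decreases. Tpi1 and Aldoc, both among those 8, had none. Over all tested genes the shares were 25.7% of those that fell, 21.9% of those that fell at least 2-fold and 1742 of the 7559 that did not pass. The 4 windows below show the lactate exporter, both lactate dehydrogenases, which lay in opposite directions in KO, and Pgk1. Capitals mark ACGTG on either strand, and a match on the lower strand reads CACGT in the printed line.
Slc16a3: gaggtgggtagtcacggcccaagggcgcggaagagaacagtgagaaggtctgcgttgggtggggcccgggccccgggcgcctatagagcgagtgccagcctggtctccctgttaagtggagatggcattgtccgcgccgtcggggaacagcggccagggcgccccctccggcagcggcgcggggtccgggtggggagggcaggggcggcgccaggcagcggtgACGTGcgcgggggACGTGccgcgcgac
Ldha: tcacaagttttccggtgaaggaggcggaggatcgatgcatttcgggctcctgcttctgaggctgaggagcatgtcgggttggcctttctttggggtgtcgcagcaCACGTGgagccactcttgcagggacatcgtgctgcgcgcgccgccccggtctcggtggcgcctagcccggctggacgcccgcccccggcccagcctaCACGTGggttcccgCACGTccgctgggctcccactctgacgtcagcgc
Pgk1: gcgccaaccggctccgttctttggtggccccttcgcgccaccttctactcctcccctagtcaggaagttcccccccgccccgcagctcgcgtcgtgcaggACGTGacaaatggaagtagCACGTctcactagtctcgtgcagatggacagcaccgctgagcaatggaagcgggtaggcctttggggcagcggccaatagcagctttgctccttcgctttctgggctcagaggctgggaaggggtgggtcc
Ldhb: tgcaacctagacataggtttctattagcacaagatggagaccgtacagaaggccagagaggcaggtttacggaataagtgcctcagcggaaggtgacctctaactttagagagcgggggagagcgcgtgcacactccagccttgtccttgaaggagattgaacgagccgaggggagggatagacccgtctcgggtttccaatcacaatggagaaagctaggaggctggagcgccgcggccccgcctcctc
The Slc16a3 window is chr11:120948817-120949066 on the plus strand, with 2 matches, 27 and 14 bases before the start, and 14 of its bases lie in exons of other transcripts in GENCODE M21. The Ldha window is chr7:46845554-46845803 on the plus strand and holds 5 matches, of which 4 form 2 CACGTG motifs, 145 and 48 bases before the start. A second RefSeq start of Ldha has none in its window. The Pgk1 window is chrX:106186850-106187099 on the plus strand, with matches 150 and 131 bases before the start. The Ldhb window is chr6:142507958-142508207 on the minus strand and has no ACGTG, although the letters GCGTG occur in it. A match is a description of the letters and not a binding site, and a window without one says nothing of any factor.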

How the data were processed

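The 15 RNA-seq libraries of polyadenylated RNA each came with a deposited table of raw counts per gene symbol, and titles gave the groups. The submitters' processing notes name STAR, featureCounts, StringTie and DESeq2 with mm10 and GRCm38. Versions, settings, annotation, strandedness and the treatment of shared reads were not given in the sources used here, so near-identical, overlapping and antisense genes are uncertain. Replicates of a group differed beyond sampling noise (chi-square over its degrees of freedom from 3.2 to 31.78) and each counts as 1 sample.

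Genes were filtered with filterByExpr of edgeR 4.0.16 (R 4.3.3; minimum count 10, minimum total 15), leaving 15696 and dropping 9286. After TMM scaling, 1 quasi-likelihood model with group means covered all libraries. P-values were adjusted by Benjamini-Hochberg within a comparison over every tested gene (threshold 0.05). The scripts were tested on simulated data first. RPKM used GENCODE M21 exon lengths on GRCm38, and promoters came from RefSeq.

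Members, lists, tests and alternatives were chosen with earlier results of these data known. Named are all 37 members, up to 2 risen and 2 fallen genes with the smallest p in a comparison from each related list, and Atg7, Hprt and Col1a1. Eno1b was chosen after its values were seen, as were further values of named genes.

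Alternatives were RLE, upper quartile and chromosome-wise scaling, no filter, a stricter filter (10 CPM in 3 libraries), DESeq2 1.42.0, each comparison fitted on its own groups, a replicate block, a test against a 1.5-fold change, a collagen score (mean log2 CPM of Col1a1, Col1a2 and Col3a1) as a covariate, 13 libraries (leaving out the third ESC library and the second KO library of day 2) and each library left out. Summing Eno1 and Eno1b was added after seeing the data.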

Additional observations from a re-analysis of the deposited data

Results flagged for a closer look

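For 16 of the 36 tested members the effect of Atg7 loss differed between day 2 and day 4 by edgeR's test of that difference itself, in which a negative value means a more negative effect at day 4. The differences were negative for the glucose carrier Slc2a1 (-1.31), for Pfkm (-0.51), Aldoa (-0.43), Aldoc (-2.66) and Tpi1 (-2.23) among the preparatory enzymes, for Pfkfb3 (-1.73), for Gapdh (-0.40) and Pgk1 (-1.33) in the payoff phase, and for Ldha (-1.28) and the lactate exporter Slc16a3 (-2.78). They were also negative for Pdk1 (-0.66), Pygl (-3.31) and Pygb (-0.63), of which Pygb had risen at day 2 and fell at day 4. They were positive for Hk1 (0.37), Pfkfb2 (0.81) and Pgam1 (0.38), which were lower at day 2, while at day 4 Hk1 and Pgam1 fell less and Pfkfb2 did not pass. The difference for Aldoa did not pass in 11 of 12 refits without 1 compared library.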

How the results depend on the processing

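With the collagen score as a covariate, values changed sign for Slc16a1 (0.35) from ESCs to day 2, for Aldoc (0.047), Pdha1 (0.31), Ugp2 (0.016) and Pgm2 (-0.74) from day 2 to day 4 in control, and for Eno3 (1.07), Pdha1 (0.29) and Pgm2 (-0.42) from ESCs to day 4. That fit carries a slope from the spread within groups over the gaps between groups. In it 7 members fell from day 2 to day 4 in control and 7113 genes passed from ESCs to day 4. In the same fit 1 member rose in KO at day 4. With chromosome-wise scaling Gapdh was -0.27 from ESCs to day 4, and 1 member (Ldhb) rose in KO at day 4, as 1 did without a filter. Against a 1.5-fold change 5273 genes passed from ESCs to day 2 (8 members higher, 4 lower), 4794 from day 2 to day 4 (9 and 4), 5792 from ESCs to day 4 (11 and 7), 847 in KO at day 2 (0 and 0), 614 in KO at day 4 (9 lower) and 846 for the difference of the KO effect (0 and 7). In fits of only the groups compared, 5 members rose and 23 fell in KO at day 2, 1 rose at day 4, and 22 had a lower effect at day 4. In the 13 libraries, 20 fell at day 2, 1 rose at day 4 and 5 had a higher effect at day 4.

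With 1 library left out, between 1 and 3 members rose in KO at day 2, between 0 and 1 at day 4, and between 12 and 20 had a lower effect at day 4, with 20 reached without ESC replicate 3. Replicate numbers 1 to 3 recur in all groups, but deviations of same-numbered libraries correlated by only -0.10 to 0.08, so the numbers were not taken to pair them. The replicate block changed 1 of 216 member results: Pfkfb4 from ESCs to day 4 was 0.41 with an edgeR adjusted p of 0.0525. Genes of few counts, such as Aldoc and Pygl in KO at day 4, have the least precise levels, and that of Eno1 could not be read because its copy Eno1b held the counts.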

Other observations

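Genes of the related lists that rose more from ESCs to day 2 than any of the 36 tested members included Fbp2 and Txnip. Those that fell more included Slc16a8, from the list of lactate carriers (-3.72 ± 0.55, edgeR adjusted p = 1.56e-05), Pck2 and Mycn (-2.74 ± 0.12). Fbp2, a fructose bisphosphatase of gluconeogenesis, was 1.008, 0.541 and 1.65 CPM in ESCs and 30.8, 25.4 and 28.1 CPM in control at day 2, with no overlap, and rose by 4.70 ± 0.19 (edgeR adjusted p = 5.65e-12). Txnip was 126, 185 and 231 CPM in ESCs and 2557, 2615 and 2485 CPM at day 2, a rise of 3.82 ± 0.16. Pck2 went the other way, from 229.9, 228.7 and 101 CPM to 22.0, 20.6 and 22.6 CPM, and fell by 3.10 ± 0.23, and the ESC library with the least collagen RNA had the least Pck2. Of 11 pentose phosphate genes, 8 fell and 2 rose from day 2 to day 4 in control, where 34.6% and 33.9% of all tested genes did, and Tkt, transketolase, went from 815, 847 and 772 CPM to 317, 336 and 338 CPM, and fell by 1.30 ± 0.05 (edgeR adjusted p = 4.75e-12).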
